A study of Mus musculus with 2 samples.

Results

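Tumour-infiltrating neutrophils were described in subcutaneous Colon26 tumours of 14 wild-type BALB/c mice. Colon26 is a transplantable mouse colon carcinoma line. The neutrophils were 328 of the 7732 cells that had at most 25% of their reads in mitochondrial genes, and they were chosen by their own reads. Gene levels were taken as CP10k, the reads of a gene per 10000 reads of the cell. A cell counted as a neutrophil when S100a8 and S100a9 together reached 20 CP10k, when G0s2 or Cxcr2 had at least 1 read, and when C1qa and Trac were each under 1 CP10k and Gzma under 10 CP10k. The levels of these 7 genes are therefore given as a description, with no test.

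All mice carried the same tumour, and CD45+ cells of tumours taken on day 10 were sequenced together, each mouse marked by a hashtag antibody. The minP1_PDL1 group (n = 4) received both agents. The PDL1 group (n = 3) received anti-PD-L1 antibody alone, 200 µg into the peritoneum on days 4 and 8. The minP1 group (n = 4) received minP1 alone, an immunostimulatory peptide derived from HMGN1, 0.08 µg into the peritoneum on day 9. Control mice (n = 3) received neither agent. The labels speak of separate experimental runs but give none for any mouse, so a run and a group cannot be told apart. They also call the cells intestinal in one field, while the tissue field names the tumour.

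Neutrophils are short-lived granulocytes made in the bone marrow. They follow chemokines through Cxcr2, carry the calprotectin subunits S100a8 and S100a9 in their cytosol, and pack proteases and antimicrobial proteins into granules whose genes are read mainly while the cells mature. Type I interferons switch on a set of antiviral genes in them through transcription factors that bind interferon-stimulated response elements. PD-L1, encoded by Cd274, binds PD-1, a receptor that restrains T cells, and is carried by myeloid cells as well as by tumour cells. HMGN1 is a nucleosome-binding protein that acts outside the cell as an alarmin and is known to signal through Tlr4.

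Interferon-induced genes were followed mouse by mouse, and the promoters of 4 of them are shown with the element that interferon-activated factors bind. The sequences are those of RefSeq on GRCm38.p6 and hold the 250 bases before the transcription start. They run 5′ to 3′ on the gene's strand, in lower case, with each match of GAAANNGAAA or its reverse complement TTTCNNTTTC in capitals. Ifit1 encodes a protein that binds viral RNA, and its window was chr19:34640639-34640888 (plus strand). Isg15 encodes a ubiquitin-like modifier, and its window was chr4:156200819-156201068 (minus strand). Rsad2 encodes the antiviral enzyme viperin, and its window was chr12:26456453-26456702 (minus strand). Cxcl10 encodes a chemokine that attracts Cxcr3-bearing T cells and NK cells, and its window was chr5:92348890-92349139 (minus strand).
Ifit1: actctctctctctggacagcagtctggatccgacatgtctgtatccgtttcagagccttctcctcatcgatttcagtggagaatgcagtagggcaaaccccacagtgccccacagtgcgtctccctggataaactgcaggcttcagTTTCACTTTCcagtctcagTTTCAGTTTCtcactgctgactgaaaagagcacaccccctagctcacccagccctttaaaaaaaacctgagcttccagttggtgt
Isg15: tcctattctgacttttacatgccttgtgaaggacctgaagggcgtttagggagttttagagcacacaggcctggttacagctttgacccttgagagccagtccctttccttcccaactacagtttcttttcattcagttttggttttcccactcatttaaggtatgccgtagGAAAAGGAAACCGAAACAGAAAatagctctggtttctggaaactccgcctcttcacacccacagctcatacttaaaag
Rsad2: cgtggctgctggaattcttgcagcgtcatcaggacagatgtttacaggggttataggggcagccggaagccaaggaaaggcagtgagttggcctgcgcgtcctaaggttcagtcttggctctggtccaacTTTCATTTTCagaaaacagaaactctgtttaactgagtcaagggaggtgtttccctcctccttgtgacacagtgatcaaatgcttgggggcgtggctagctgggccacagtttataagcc
Cxcl10: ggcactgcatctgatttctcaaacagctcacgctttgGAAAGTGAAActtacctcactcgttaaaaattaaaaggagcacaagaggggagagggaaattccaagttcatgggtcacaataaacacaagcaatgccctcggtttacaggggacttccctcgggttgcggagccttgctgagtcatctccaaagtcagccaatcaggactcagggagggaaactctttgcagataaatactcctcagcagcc
The Ifit1 window held 2 matches, that of Isg15 held 3, each overlapping its neighbour, and those of Rsad2 and Cxcl10 held 1 each. Over windows of 300 bases, 250 before and 50 after the start, 1131 of 32851 promoters (3.44%) held the motif. Of the 33 genes of the type I interferon list, 28 had a promoter in the table, and 14 of those (50%) held it in at least 1 promoter. Counted in the same way, 1079 of all 27025 genes with a promoter (3.99%) held it. A match describes the letters of these windows and is not a binding site shown in these cells.

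The cells carried the genes by which neutrophils are known, beyond those of the rule. To compare cells of unequal depth, each was thinned to 5000 reads. Csf3r, the receptor of the granulocyte growth factor G-CSF, then had a read in 82.6% of neutrophils, in 17.7% of cells of a monocyte gate and in 11.2% of cells of a T cell gate. Acod1, which makes itaconate, was read in 89.0% of neutrophils, 14.0% of monocyte-gate cells and 11.3% of T-gate cells. Hdc, the histamine-forming enzyme, was read in 69.2%, 5.30% and 4.00% of the cells of those classes, in the same order. T cells should lack these genes, and a share at or below that of the T gate was read as background. This background may not be free of neutrophil reads. Of the 550 cells that met the limits of S100a8, S100a9, G0s2 and Cxcr2, 140 were removed by Trac, and such cells could enter the T gate. The monocyte gate took 982 cells with a read of Ccr2 or Ly6c2 and at least 5 CP10k of Vcan, Chil3 and Ly6c2 together, under the same upper limits as the neutrophil rule, and the T gate held 2526 cells.

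Other identity genes, too, had a read in a larger share of neutrophils than of either other class. Il1r2, the decoy receptor of interleukin 1, was read in 79.9% of neutrophils, against 17.2% of monocyte-gate cells and 16.2% of T-gate cells. Trem1, an activating receptor of myeloid cells, was read in 72.9% of neutrophils, 24.7% of monocyte-gate cells and 10.3% of T-gate cells. Stfa2l1, a stefin-like protease inhibitor, was read in 38.7%, 0.509% and 1.66% of those cells, in the same order. Ly6g, the surface antigen commonly used to sort mouse neutrophils, had a read in only 3.66% of the neutrophils, against 0.204% of monocyte-gate cells and 0.317% of T-gate cells. Among the most skewed genes that the rule did not use, the summed reads in CPM, scaled to the same total in each class, were 211 times higher in neutrophils than in monocyte-gate cells for Stfa2l1, 199 times for Mrgpra2a, a Mas-related receptor, 68.6 times for Il1f9, an interleukin 1 family cytokine, and 39.9 times for Mmp9, a gelatinase. These ratios describe cells that were picked by correlated genes and carry no test.

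Genes that neutrophil precursors read while they build primary granules were nearly silent. Mpo, the myeloperoxidase gene, had a read in 0.610% of neutrophils and in 0% of monocyte-gate cells after thinning. Elane, neutrophil elastase, and Ctsg, cathepsin G, had no read in any of the 328 neutrophils, which allows a share of cells with a read of up to 0.915%. Secondary and tertiary granule genes were read in a minority of cells, with Lcn2, the siderophore-binding lipocalin, in 22.6% of neutrophils, Retnlg, a resistin-like secreted protein, in 18.6% and Mmp8, neutrophil collagenase, in 10.1%. Camp, another granule gene of the list, was not analysed here. The eosinophil lectin Siglecf, which also marks a state of neutrophils in some mouse tumours, was read in 1.22% of neutrophils.

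**Figure D1:**
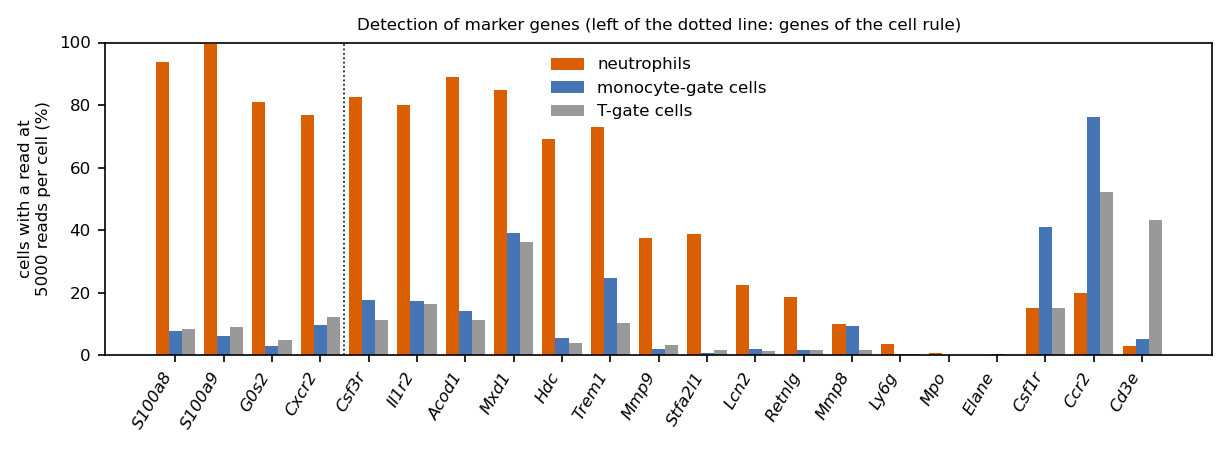
Share of cells with at least 1 read of each gene after thinning every cell to 5000 reads, in 328 neutrophils, 982 monocyte-gate cells and 2526 T-gate cells; genes left of the dotted line were used by the rule and show no finding. Csf3r, Il1r2, Acod1, Hdc and Trem1 are read in most neutrophils and in a minority of the other cells, and Mpo and Elane are at or near 0%.

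The edge of the rule and the depth of the cells set limits. The lowest summed S100a8 and S100a9 level inside was 20.1 CP10k, and the highest level outside among cells that met all other criteria was 19.7 CP10k. The 33 neutrophils from 20 to 40 CP10k had a read of Csf3r in 78.8% and of the monocyte receptor gene Csf1r in 42.4%. The 29 cells just outside, from 10 to 20 CP10k, had a read of Csf3r in 89.7% and of Csf1r in 41.4%, so the edge does not divide the cells by these 2 genes. Other genes differed more across the edge: Mmp9 was read in 57.6% inside and 27.6% outside, Hdc in 66.7% and 51.7%, and Il1r2 in 66.7% and 86.2%. Acod1 was read in 81.8% and 82.8%. The 243 neutrophils with at least 100 CP10k had a read of Csf3r in 90.5% and of Csf1r in 13.6%. All shares at the edge were taken without thinning, and depth differed. The median was 32152 reads just inside and 23778 just outside, against 12813 over all neutrophils.

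Neutrophils were shallow, with a median of 12813 reads and 849.5 genes, against 42657 reads and 2183 genes in monocyte-gate cells and 31946 reads and 1824 genes in T-gate cells. Kept reads per mouse ran from 26007834 to 51230461 over all cells. The deepest 33 neutrophils held 39.7% of all neutrophil reads, and 1 cell held between 10.9% and 43.8% of a mouse's neutrophil reads. A gene of another lineage (9 genes, each at 1 CP10k or more) was present in 74 neutrophils (22.6%), whose median depth was 24197 reads, against 12153 reads in the other 254. The 9 genes were Cd3e, Cd3d, Cd79a, C1qb, C1qc, Ncr1, Col1a1, Siglech and Fcer1a. Reads were not collapsed to molecules. The intervals below are on numbers of cells and cover the counting error within a mouse only, not the spread between mice.

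Neutrophils made up a larger share of CD45+ cells in tumours of treated mice than in Control tumours, with the highest shares in mice given antibody. The share of kept cells was 6.64% (37 of 557 cells), 3.42% (18 of 527), 6.78% (33 of 487) and 4.74% (26 of 549) in minP1_PDL1 mice. It was 5.59% (27 of 483), 8.15% (38 of 466) and 5.75% (29 of 504) in PDL1 mice. In minP1 mice it was 2.30% (13 of 564), 3.69% (22 of 597), 4.83% (35 of 724) and 3.74% (24 of 642), and in Control mice 1.65% (8 of 484), 1.24% (8 of 647) and 2.00% (10 of 501). Every treated mouse lay above every Control mouse. The minP1_PDL1 mice overlapped both the PDL1 and the minP1 mice, while the PDL1 mice lay above all minP1 mice.

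The mean share was 5.39% ± 1.61 in minP1_PDL1 mice (SD, n = 4), 6.50% ± 1.44 in PDL1 mice (n = 3), 3.64% ± 1.04 in minP1 mice (n = 4) and 1.63% ± 0.380 in Control mice (n = 3). The PDL1 mean was 3.99 times the Control mean (exact permutation test, two-sided, p = 0.1, which is the lowest value this design can reach, adjusted p = 0.15 over 6 comparisons). The minP1 mean was 2.24 times and the minP1_PDL1 mean 3.31 times the Control mean (exact permutation p = 0.0571 in both, over 35 splits of the mice, adjusted p = 0.114). The minP1_PDL1 mean was 0.830 times the PDL1 mean (exact permutation p = 0.4, adjusted p = 0.4) and 1.48 times the minP1 mean (exact permutation p = 0.2, adjusted p = 0.24). Neither difference was resolved with 3 or 4 mice a side. The counting interval of a single mouse was wide, for example 4.86% to 9.02% for minP1_PDL1_1 and 0.628% to 2.42% for Control_2 (Wilson, 95%).

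Over both peptide strata, antibody-treated mice were set against mice without antibody. The 7 mice given antibody averaged 5.87% ± 1.53 and the 7 mice without it 2.78% ± 1.32. Averaged over the strata the difference was 3.31 percentage points (two-sided exact permutation within strata, n = 7 each, p = 0.01, adjusted p = 0.06). It missed the threshold after adjustment, while 5 of the 6 other cell definitions gave an adjusted p under 0.05, from 0.0171 to 0.0343 by the exact permutation test. Leaving out 1 mouse at a time gave adjusted p from 0.0257, without minP1_PDL1_2, to 0.103, without minP1_1. The antibody difference of log2 shares was lower with peptide than without it by 1.44, which was not distinguishable from 0 (permutation p = 0.124, n = 14 mice).

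The shares of monocyte-gate cells overlapped between all groups. Their share was 13.7% ± 1.59 in minP1_PDL1 mice, 12.0% ± 1.77 in PDL1 mice, 12.1% ± 2.74 in minP1 mice and 12.4% ± 2.70 in Control mice. The log2 ratio of neutrophils to monocyte-gate cells, with 0.5 added to each count, averaged -1.38, -0.882, -1.73 and -2.86 in these groups, in the same order. It was higher with antibody than without by 1.17 over the strata (two-sided exact permutation within strata, n = 7 each, p = 0.0171), and p stayed from 0.00286 to 0.0357 when each mouse was left out in turn. These shares are of CD45+ cells that survived digestion and density separation, and the number of neutrophils per tumour was not measured.

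**Figure D2:**
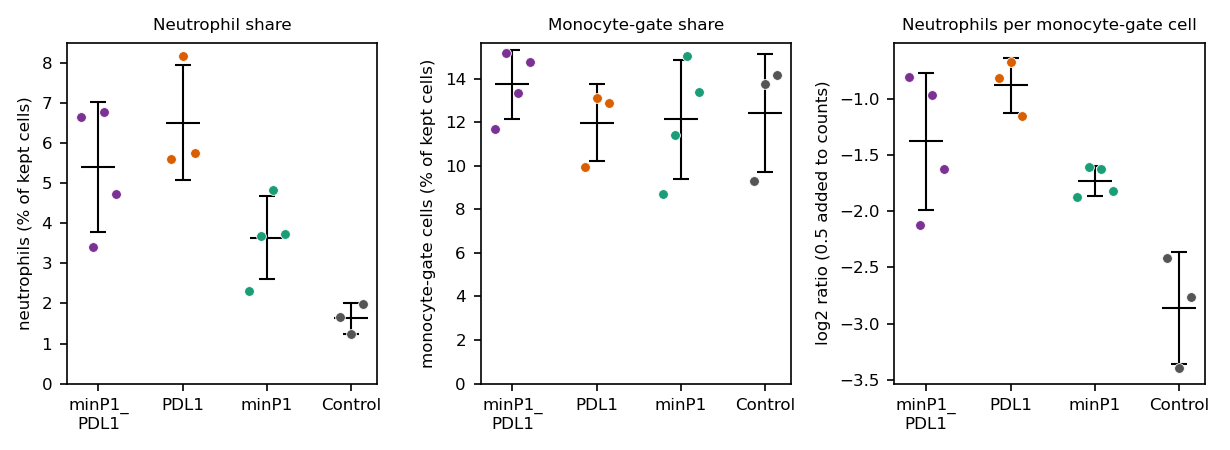
Neutrophil share, monocyte-gate share and log2 ratio of neutrophils to monocyte-gate cells in each of 14 mice, 1 point per mouse, with the mean and SD of each group. All treated mice lie above the Control mice in neutrophil share (Control highest 2.00%), while the monocyte-gate shares of the groups overlap.

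For gene expression, reads were summed over the neutrophils of each mouse with at least 10 of them and fitted with edgeR's quasi-likelihood test over 10586 genes. This left 12 mice, with all treated mice and Control_3 as the only Control mouse. Comparisons between treated groups therefore rest on 3 or 4 mice a side, and those with Control on 1 mouse. With a group of 1 mouse, the low-count filter also let in genes with enough reads in only 1 mouse. Without Control_3, 7227 genes were tested. Of these, 5.08% in minP1_PDL1 against PDL1 and 5.60% against minP1 had an unadjusted edgeR p under 0.05. Levels below are the mean CP10k per neutrophil of a mouse, in which each cell weighs the same, and log2 changes are of summed reads, in which deep cells weigh more.

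Most genes of the type I interferon response had a log2 change above 0 in neutrophils of minP1_PDL1 mice against those of minP1 mice, and none passed the test. Of the 33 list members, all tested, 28 had a log2 change above 0, with a median of 0.82. Over all 10586 genes 45.4% were above 0 and the median was -0.08. No gene passed the test at an adjusted p under 0.05 in this comparison (0% of 10586 genes by edgeR), and 816 genes (7.71%) had an unadjusted p under 0.05, among them 5 of the interferon list. DESeq2 called 9 genes and limma on cells of equal weight 0.

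Ifit1, the RNA-binding antiviral gene shown above, averaged 7.74, 3.29, 5.06 and 3.00 in minP1_PDL1 mice, 7.70, 8.10 and 5.10 in PDL1 mice, 3.67, 2.16, 0.495 and 1.46 in minP1 mice, and 1.85, 1.63 and 0.817 in Control mice (CP10k per neutrophil). Of the antibody-treated mice, 5 of 7 lay above all 7 mice without antibody, whose highest value was 3.67 CP10k. The log2 change of Ifit1 between minP1_PDL1 and minP1 was 1.70 (SE 0.484, edgeR adjusted p = 0.600). Slfn5, a Schlafen-family gene induced by interferon, averaged 7.58, 8.89, 6.94 and 7.73 in minP1_PDL1 mice, 9.51, 10.3 and 5.33 in PDL1 mice, 2.05, 4.101, 2.67 and 5.03 in minP1 mice, and 7.42, 0.898 and 0.855 in Control mice (CP10k). The 4 minP1_PDL1 mice and all 3 PDL1 mice lay above the 4 minP1 mice, while Control_1 overlapped the treated mice. The log2 change of Slfn5 between minP1_PDL1 and minP1 was 1.09 (SE 0.393, edgeR adjusted p = 0.600).

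Isg15, the ubiquitin-like modifier, averaged 18.4, 20.1, 7.34 and 7.83 in minP1_PDL1 mice, 15.1, 13.4 and 6.65 in PDL1 mice, 5.73, 8.44, 4.70 and 6.10 in minP1 mice, and 9.36, 6.30 and 5.36 in Control mice (CP10k). The highest values, 2 in minP1_PDL1 and 2 in PDL1 mice, belonged to antibody-treated mice, and the other 3 antibody-treated mice lay among those without it. Isg15 differed by 1.52 on the log2 scale between minP1_PDL1 and minP1 (SE 0.433, edgeR adjusted p = 0.600). Rsad2, viperin, averaged 24.3, 37.2, 16.1 and 21.8 in minP1_PDL1 mice, 39.3, 44.2 and 13.7 in PDL1 mice, 13.5, 21.3, 17.9 and 17.3 in minP1 mice, and 26.7, 7.63 and 8.84 in Control mice (CP10k). The groups overlapped, with 3 of 7 antibody-treated mice above all others, and the log2 change between minP1_PDL1 and minP1 was 0.88 (SE 0.424, edgeR adjusted p = 0.600). Slfn4, a myeloid Schlafen gene named here after its values were seen, averaged 60.1, 121, 59.9 and 45.5 in minP1_PDL1 mice, 80.7, 71.2 and 49.6 in PDL1 mice, 47.9, 70.0, 55.1 and 46.1 in minP1 mice, and 50.2, 30.1 and 68.1 in Control mice (CP10k), with overlap between all groups.

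Set against PDL1 mice, the minP1_PDL1 mice had log2 changes nearer to those of the genes as a whole: 18 of 33 interferon genes were above 0 with a median of 0.13, where 43.1% of all genes were above 0 and their median was -0.18. In this comparison, too, 0 genes (0%) passed in edgeR, 723 genes (6.83%) had an unadjusted p under 0.05, and DESeq2 called 6. When all 14 mice entered the fit, by a minimum of 5 neutrophils per mouse chosen after the data had been seen, 7231 genes were tested. The average effect of the antibody over both strata was then above 0 for 27 of 33 interferon genes with a median of 0.55, where 56% of all genes were above 0 with a median of 0.12. Of the interferon list, 9 genes had an unadjusted p under 0.05, against 6.2% of all genes. The share of the list above 0 was 14 of 33 for minP1 against Control in these 14 mice, with a median of -0.10, where 56.7% of all genes were above 0 and their median was 0.22.

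In that fit of 14 mice the antibody average was 1.73 on the log2 scale for Ifit1 (SE 0.383, edgeR adjusted p = 0.669) and 1.31 for Slfn5 (SE 0.334, edgeR adjusted p = 0.758). With the 12 mice it was 1.45 and 1.64 for these genes, where the median of all 10586 genes was itself 0.92. DESeq2 gave Slfn5 1.51, where its median of all genes was 0.55. Control_3, the only Control mouse of these 12, had the lowest Slfn5 level of all mice. Parp14, an ADP-ribosyltransferase of the same list, had 3.32 in the 12 mice and 1.19 in the 14 mice. The medians of all genes in these fits were 0.92 and 0.12. Parp14 averaged 4.28, 4.35, 1.27 and 2.36 in minP1_PDL1 mice, 1.84, 2.73 and 1.71 in PDL1 mice, 1.62, 2.15, 0.819 and 1.34 in minP1 mice, and 3.47, 1.62 and 0.0145 in Control mice (CP10k), and Control_3 was the lowest of all mice. Across single cells, interferon genes went together to a moderate degree: Spearman's rho over the 328 neutrophils was 0.44 for Ifit1 with Rsad2, 0.43 for Rsad2 with Slfn4 and 0.42 for Isg15 with Rsad2, but 0.04 for Slfn4 with Cxcl10. These are descriptions of cells that share a library and differ in depth. After thinning, Rsad2 was read in 57.6% of neutrophils, 17.7% of monocyte-gate cells and 8.83% of T-gate cells.

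**Figure D3:**
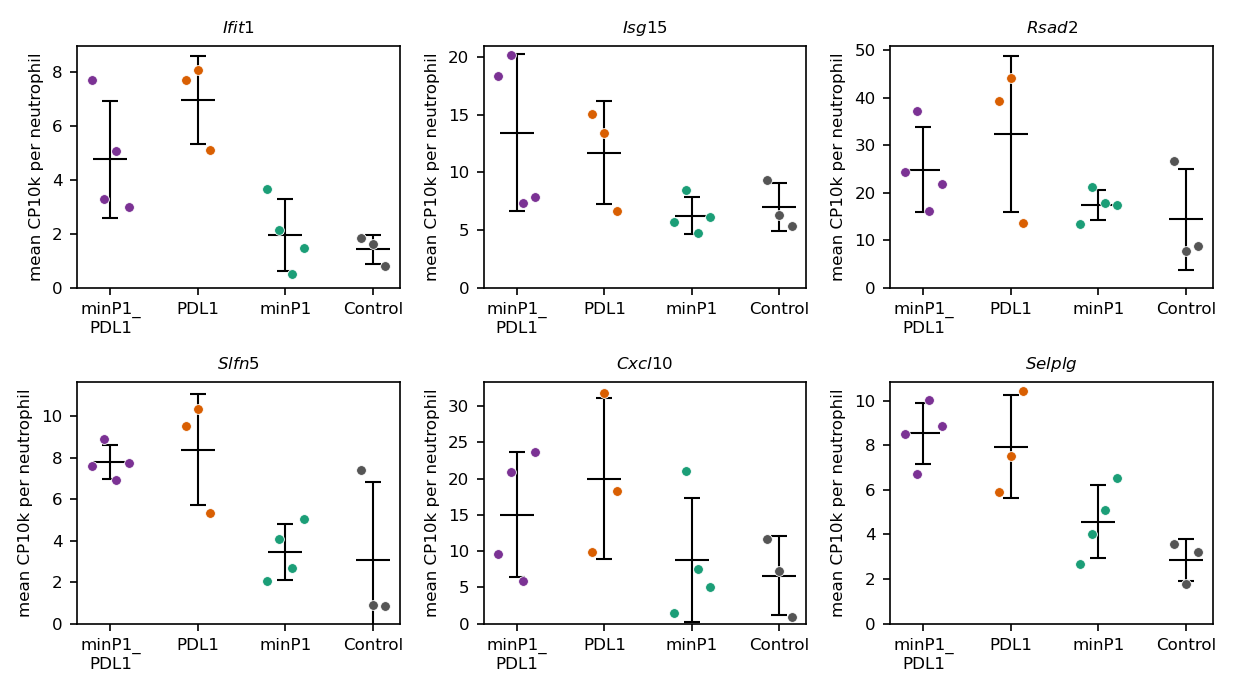
Mean CP10k per neutrophil of Ifit1, Isg15, Rsad2, Slfn5, Cxcl10 and Selplg in each of 14 mice, 1 point per mouse, with the mean and SD of each group. Ifit1, Slfn5 and Selplg lie higher in most antibody-treated mice than in mice without antibody, with overlap in 1 or 2 mice.

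Among adhesion genes, Selplg, which encodes the P-selectin ligand PSGL-1 that lets leukocytes roll on vessel walls, had the smallest p of its list in the antibody average. Selplg averaged 8.53, 6.70, 10.0 and 8.86 in minP1_PDL1 mice, 5.88, 7.50 and 10.4 in PDL1 mice, 2.66, 4.03, 5.08 and 6.51 in minP1 mice, and 3.58, 1.79 and 3.21 in Control mice (CP10k). Of the mice given antibody, 6 of 7 lay above all 7 mice without it. The log2 change between minP1_PDL1 and minP1 was 0.80 (SE 0.371, edgeR adjusted p = 0.600), and the antibody average over 14 mice was 1.09 (SE 0.280, edgeR adjusted p = 0.758). The adhesion list as a whole had 6 of 13 members above 0 in minP1_PDL1 against minP1, with a median of -0.01.

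Among secreted factors, Cxcl10 had the smallest p in the antibody average. Cxcl10, the Cxcr3 ligand, averaged 9.55, 20.9, 5.89 and 23.6 in minP1_PDL1 mice, 9.81, 31.8 and 18.3 in PDL1 mice, 1.45, 21.0, 7.59 and 5.06 in minP1 mice, and 11.7, 7.26 and 0.864 in Control mice (CP10k). Values spread widely within each group, and only 2 of 7 antibody-treated mice lay above all mice without antibody. Cxcl10 was read in 34 of 114 neutrophils of minP1_PDL1 mice (29.8%), 38 of 94 of PDL1 mice (40.4%), 31 of 94 of minP1 mice (33.0%) and 5 of 26 of Control mice (19.2%). The log2 change was 1.35 between minP1_PDL1 and minP1 (SE 0.446, edgeR adjusted p = 0.600), and the antibody average was 1.50 in 14 mice (SE 0.369, edgeR adjusted p = 0.758).

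The antibody effect in neutrophils was set against that in monocyte-gate cells of the same 12 mice, with the mouse as a block. Control_3, whose Cxcl10 level was the lowest of all mice, was the only Control mouse among them. For Cxcl10 it was larger in neutrophils by 2.49 on the log2 scale (SE 0.407, edgeR adjusted p = 0.0521), the smallest p of 10525 genes, of which 0 (0%) passed. At an unadjusted p under 0.05 there were 325 genes (3.09%), and with RLE size factors 0 passed. When the monocyte gate also required a read of Csf1r, a choice made after the data had been seen, the Cxcl10 difference was 2.61 with an edgeR adjusted p of 0.00797. Over all alternatives the edgeR adjusted p ran from 0.00797 to 0.524. The highest came without Control_3, where the difference was 2.42. Slfn5 followed with 1.88 (SE 0.426, edgeR adjusted p = 1).

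The levels of the inflammatory cytokines for which tumour neutrophils are known overlapped between groups, and Il1b was read in nearly every cell. Il1b, interleukin 1 beta, averaged 197, 204, 209.7 and 326 in minP1_PDL1 mice, 216, 219 and 206 in PDL1 mice, 171, 225, 228 and 137 in minP1 mice, and 184, 208 and 189 in Control mice (CP10k). The highest value was that of minP1_PDL1_4, and the groups overlapped; the log2 changes of minP1_PDL1 were 0.43 against minP1 (SE 0.253, edgeR adjusted p = 0.635) and 0.50 against PDL1 (SE 0.276, edgeR adjusted p = 0.642). Il1b was read in 99.1% of neutrophils, 66.2% of monocyte-gate cells and 33.1% of T-gate cells after thinning. Cxcl2, a ligand of Cxcr2, averaged 206, 113, 172 and 160.2 CP10k in minP1_PDL1 mice, 192, 186 and 144 in PDL1 mice, 131, 178, 252 and 146 in minP1 mice, and 292, 88.4 and 175 in Control mice. The lowest and the highest of these both came from Control mice.

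The other chemokines and mediators behaved likewise. Ccl3, a chemokine that attracts myeloid cells, averaged 24.8, 23.6, 43.0 and 32.7 in minP1_PDL1 mice, 23.6, 46.7 and 36.9 in PDL1 mice, 24.2, 61.1, 39.1 and 28.8 in minP1 mice, and 50.9, 14.0 and 38.0 in Control mice (CP10k), and Ccl4, a related chemokine, averaged 18.2, 26.8, 33.7 and 18.6 in minP1_PDL1 mice, 22.8, 26.8 and 44.9 in PDL1 mice, 10.4, 49.3, 30.8 and 12.3 in minP1 mice, and 31.6, 13.8 and 5.61 in Control mice (CP10k). Tnf, tumour necrosis factor, averaged 2.50, 1.08, 2.52 and 5.40 in minP1_PDL1 mice, 8.06, 8.28 and 5.49 in PDL1 mice, 0.138, 9.91, 4.42 and 2.68 in minP1 mice, and 5.29, 0.972 and 6.05 in Control mice (CP10k), and Ptgs2, cyclooxygenase 2, averaged 17.7, 7.06, 12.7 and 21.6 in minP1_PDL1 mice, 8.67, 14.5 and 16.9 in PDL1 mice, 18.0, 15.9, 18.8 and 11.1 in minP1 mice, and 36.8, 3.75 and 5.13 in Control mice (CP10k). The groups overlapped for these 4 genes, except that the PDL1 mice lay above the minP1_PDL1 mice for Tnf. Of the 23 secreted factors tested, 14 were above 0 in minP1_PDL1 against minP1 with a median of 0.07, and 17 in minP1_PDL1 against PDL1 with a median of 0.27. Ccl3 and Ccl4 had a Spearman's rho of 0.54 over the 328 cells, and Il1b and Cxcl2 of 0.40.

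Cd274, which encodes the target of the antibody, was read in 55.5% of neutrophils after thinning, against 36.8% of monocyte-gate cells and 28.9% of T-gate cells. Cd274 averaged 10.1, 8.80, 11.5 and 28.2 in minP1_PDL1 mice, 12.5, 18.3 and 8.57 in PDL1 mice, 6.28, 12.3, 16.3 and 6.87 in minP1 mice, and 9.52, 6.78 and 7.88 in Control mice (CP10k). The highest value was that of minP1_PDL1_4, and all groups overlapped. The log2 change of minP1_PDL1 against minP1 was 0.40 (SE 0.413, edgeR adjusted p = 0.903) and became -0.10 without minP1_PDL1_4. Against PDL1 it was 0.57 (SE 0.451, edgeR adjusted p = 0.829). The checkpoint list as a whole had 11 of 15 members above 0 in minP1_PDL1 against minP1, with a median of 0.14, and 10 of 15 against PDL1, with a median of 0.24.

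The calprotectin genes, used by the rule, were given as levels only. S100a8 averaged 196, 234, 137 and 214 in minP1_PDL1 mice, 109.8, 102 and 95.5 in PDL1 mice, 132, 101, 136 and 130.1 in minP1 mice, and 37.5, 53.9 and 197 in Control mice (CP10k). S100a9 averaged 285, 252, 227 and 285 in minP1_PDL1 mice, 223, 196 and 148 in PDL1 mice, 202, 202, 180.5 and 226 in minP1 mice, and 115, 127 and 188 in Control mice (CP10k). The minP1_PDL1 mice had the highest S100a9 levels of all groups without overlap, and for S100a8 all 4 lay above the PDL1 and minP1 mice, while Control_3 lay among them. G0s2, an inhibitor of fat breakdown, averaged 40.0, 23.2, 18.2 and 28.6 in minP1_PDL1 mice, 22.3, 27.9 and 32.6 in PDL1 mice, 19.7, 32.3, 44.9 and 27.0 in minP1 mice, and 29.95, 22.6 and 28.6 in Control mice (CP10k), and Cxcr2, the chemokine receptor, averaged 15.5, 36.0, 20.9 and 16.4 in minP1_PDL1 mice, 12.8, 24.4 and 8.86 in PDL1 mice, 23.0, 22.2, 20.2 and 13.7 in minP1 mice, and 10.1, 6.59 and 30.7 in Control mice (CP10k), both with overlap between groups. C1qa, Trac and Gzma, the genes with an upper limit, are low in these cells by the rule.

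The granule genes Lcn2, Retnlg and Mmp8 were read in a minority of neutrophils. No granule gene passed the main edgeR fit in minP1_PDL1 mice against PDL1 mice. Of the granule list, which has 22 genes, 15 were tested, and 14 of these were above 0 with a median of 2.19 on the log2 scale in minP1_PDL1 against PDL1. Of all genes, 43.1% were above 0 in this comparison, and their median was -0.18. Against minP1, too, 14 of 15 were above 0, with a median of 1.00, where 45.4% of all genes were above 0 and their median was -0.08. In both comparisons 6 of the 15 granule genes had an unadjusted p under 0.05 and 0 passed in the main edgeR fit. Of all genes, 6.83% against PDL1 and 7.71% against minP1 had an unadjusted p under 0.05. Members with reads in few cells entered the test through the mice in which they were high, so these counts and medians are a description of the genes tested and not of the whole list. Neutrophils with at least 3 of Lcn2, Retnlg, Mmp8 and Ifitm6 numbered 13 of 114 in minP1_PDL1 mice, 3 of 94 in PDL1 mice, 7 of 94 in minP1 mice and 1 of 26 in Control mice. By mouse they were 5 of 37, 1 of 18, 2 of 33 and 5 of 26 in minP1_PDL1 mice, while all 3 of the PDL1 group came from the 29 neutrophils of PDL1_3. The groups overlapped in this share.

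Lcn2, the lipocalin of secondary granules, averaged 3.98, 5.29, 8.94 and 7.21 in minP1_PDL1 mice, 3.12, 2.16 and 4.84 in PDL1 mice, 5.82, 10.8, 5.98 and 6.64 in minP1 mice, and 0.482, 2.53 and 11.6 in Control mice (CP10k). The minP1_PDL1 and minP1 mice overlapped, and 3 of the 4 minP1_PDL1 mice lay above all PDL1 mice. The log2 change of minP1_PDL1 against PDL1 was 2.19 (SE 0.501, edgeR adjusted p = 0.374, DESeq2 adjusted p = 0.0118). It was 0.90 with cells of equal weight (limma adjusted p = 0.922), and 1 cell held 58.6% of the 2039 Lcn2 reads of minP1_PDL1 neutrophils. Against minP1 it was 0.96 (SE 0.435, edgeR adjusted p = 0.600), and it turned to -0.22 with cells of equal weight and to -0.50 without cells that carried a gene of another lineage. Mmp8, neutrophil collagenase, averaged 3.40, 7.05, 2.25 and 2.40 in minP1_PDL1 mice, 0.615, 0.949 and 0.864 in PDL1 mice, 2.76, 0.0820, 0.619 and 2.00 in minP1 mice, and 0, 0.0735 and 5.03 in Control mice (CP10k). All 4 minP1_PDL1 mice lay above the 3 PDL1 mice, and the log2 change was 2.87 (SE 0.662, edgeR adjusted p = 0.374, DESeq2 adjusted p = 0.00768). The share of cells with an Mmp8 read hardly differed, at 17 of 114 in minP1_PDL1 mice (14.9%) and 13 of 94 in PDL1 mice (13.8%). With cells of equal weight, limma called 0 genes in this comparison.

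Retnlg, the resistin-like gene, averaged 8.93, 30.1, 4.94 and 10.4 in minP1_PDL1 mice, 0.427, 1.72 and 5.89 in PDL1 mice, 11.3, 4.32, 12.3 and 2.45 in minP1 mice, and 1.20, 0.377 and 41.2 in Control mice (CP10k). Its log2 change in minP1_PDL1 against PDL1 was 3.33 (SE 0.832, edgeR adjusted p = 0.624, DESeq2 adjusted p = 0.570), and 3 of the 4 minP1_PDL1 mice lay above all PDL1 mice. Ifitm6, a member of the interferon-induced transmembrane family, averaged 3.40, 7.16, 3.65 and 2.69 in minP1_PDL1 mice, 3.68, 3.68 and 2.27 in PDL1 mice, 1.58, 1.18, 2.36 and 1.12 in minP1 mice, and 5.20, 0.731 and 13.5 in Control mice (CP10k). The minP1_PDL1 mice lay above the minP1 mice and overlapped the other groups, with log2 changes of minP1_PDL1 of 0.79 against PDL1 (SE 0.496, edgeR adjusted p = 0.703) and 1.02 against minP1 (SE 0.457, edgeR adjusted p = 0.600). Ltf, lactoferrin, and Ngp, a cathelin-related granule protein, were named after their values were seen. The 878 Ltf reads of minP1_PDL1 neutrophils lay in 3 of 114 cells with 92.6% in 1 cell, and the 3248 Ngp reads in 3 cells with 87.8% in 1 cell.

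**Figure D4:**
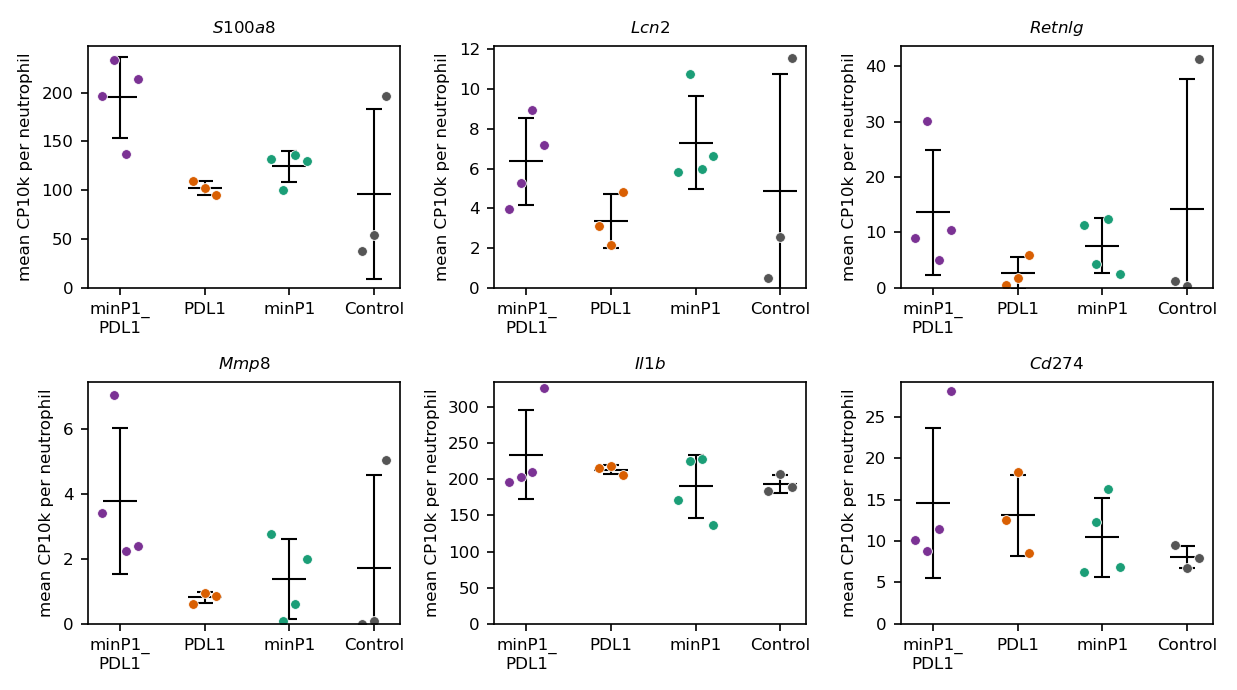
Mean CP10k per neutrophil of S100a8, Lcn2, Retnlg, Mmp8, Il1b and Cd274 in each of 14 mice, 1 point per mouse, with the mean and SD of each group, where SD bars are cut off at 0 by the axis. The minP1_PDL1 mice lie above the PDL1 mice for S100a8 and Mmp8, and Control_3 stands apart from the other Control mice for S100a8, Lcn2, Retnlg and Mmp8.

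Beyond the granule genes, the comparison with PDL1 had a few named extremes. S100a4, a calcium-binding protein of motile cells, averaged 2.14, 0.471, 1.19 and 0.843 CP10k in minP1_PDL1 mice, 4.42, 2.86 and 9.47 in PDL1 mice, 8.95, 3.11, 5.03 and 3.78 in minP1 mice, and 6.16, 3.97 and 2.44 in Control mice. All minP1_PDL1 mice lay below all other mice, and the log2 change against PDL1 was -2.30 (SE 0.531, edgeR adjusted p = 0.374); the gene was named after its values were seen. Ccl24, an eosinophil chemokine, had the smallest p of the genes that the rule did not use in the comparisons of minP1_PDL1 with PDL1 and with minP1 (edgeR adjusted p = 0.310 and 0.257). It rested on 1 read in minP1_PDL1 neutrophils, 165 reads in 4 cells of PDL1 mice and 212 reads in 7 cells of minP1 mice, with 0 reads in Control mice.

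Hmox1, haem oxygenase 1, was the member of the oxidase and redox list with the smallest p in the antibody average. Hmox1 averaged 5.04, 2.46, 2.11 and 3.40 in minP1_PDL1 mice, 3.89, 3.92 and 3.31 in PDL1 mice, 0.701, 0.680, 0.753 and 0.527 in minP1 mice, and 0.293, 2.31 and 5.66 in Control mice (CP10k). All 7 mice given antibody lay above the 4 minP1 mice, while the Control mice spanned the whole range. Its log2 change in minP1_PDL1 against minP1 was 2.36 (SE 0.585, edgeR adjusted p = 0.600, DESeq2 adjusted p = 0.0248). It was read in 27 of 114 neutrophils of minP1_PDL1 mice (23.7%), 26 of 94 of PDL1 mice (27.7%), 16 of 94 of minP1 mice (17.0%) and 5 of 26 of Control mice (19.2%). Cd36, a fatty acid scavenger receptor, also had a small p in this comparison, from 2 reads in minP1_PDL1 neutrophils and 124 reads in 7 cells of minP1 mice.

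Arginine-consuming enzymes, which tumour myeloid cells use to restrain T cells, overlapped between groups. Arg1, arginase 1, averaged 6.44, 0.257, 1.03 and 0.294 in minP1_PDL1 mice, 1.86, 2.25 and 3.30 in PDL1 mice, 1.82, 1.30, 1.22 and 2.83 in minP1 mice, and 2.31, 0 and 1.36 in Control mice (CP10k). Arg2, the mitochondrial arginase, averaged 8.52, 8.78, 4.45 and 12.4 in minP1_PDL1 mice, 3.14, 6.07 and 5.08 in PDL1 mice, 2.41, 6.08, 6.82 and 8.23 in minP1 mice, and 3.55, 8.03 and 7.74 in Control mice (CP10k). The Arg2 log2 change was 1.15 in minP1_PDL1 against PDL1 (SE 0.506, edgeR adjusted p = 0.642) and 0.62 against minP1 (SE 0.457, edgeR adjusted p = 0.789). Acod1, the itaconate-forming enzyme, averaged 55.0, 62.6, 45.3 and 66.5 in minP1_PDL1 mice, 56.0, 57.0 and 47.0 in PDL1 mice, 39.1, 44.6, 53.1 and 36.7 in minP1 mice, and 12.5, 34.5 and 51.2 in Control mice (CP10k), with log2 changes of minP1_PDL1 of 0.67 against PDL1 (SE 0.314, edgeR adjusted p = 0.642) and 0.62 against minP1 (SE 0.288, edgeR adjusted p = 0.600). Mcl1, a survival factor of the Bcl2 family, averaged 25.6, 19.7, 19.9 and 22.2 in minP1_PDL1 mice, 18.6, 24.9 and 32.1 in PDL1 mice, 17.2, 22.9, 19.5 and 17.6 in minP1 mice, and 18.6, 13.9 and 29.9 in Control mice (CP10k), with overlap of all groups.

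The remaining lists are best read beside the genes as a whole. In minP1_PDL1 against minP1, where 45.4% of all genes were above 0, 11 of 14 chemotaxis receptors, 19 of 27 Toll-like receptor and NF-kappa B genes, 20 of 28 hypoxia and glycolysis genes, 15 of 24 survival genes and 14 of 24 interferon gamma genes were above 0, with medians of 0.48, 0.16, 0.31, 0.23 and 0.12. The identity list holds 4 genes of the rule. Its other 14 members were all above 0 in both comparisons, with medians of 0.56 against minP1 and 0.68 against PDL1, and they were read in cells picked by correlated genes. Csf3r of this list averaged 20.3, 18.4, 25.1 and 22.6 CP10k in minP1_PDL1 mice, 14.8, 23.3 and 14.7 in PDL1 mice, 9.08, 10.1, 21.4 and 16.6 in minP1 mice, and 11.1, 5.35 and 19.6 in Control mice, and its log2 change was 0.64 against minP1 (SE 0.378, edgeR adjusted p = 0.639). Cell cycle genes had 9 of 22 members above 0 against minP1 with a median of -0.40, and 4 of 22 against PDL1 with a median of -1.53. In the main edgeR fit, no member of the 17 lists passed in either comparison. Other edgeR settings called some members beside genes of the rule. Against PDL1, Cd74 and Irf8 were called without cells of another lineage. Ltf, Ngp, Mmp8 and Retnlg were called against PDL1 both with no low-count filter and with a replicate block, and Lcn2 with no filter. Against minP1, both of these settings called Ltf and Ngp, and the block also Retnlg. DESeq2 called Lcn2 and Mmp8 against PDL1, beside S100a8 of the rule, and Hmox1 against minP1.

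Markers of other cells moved beside these lists. The summed level of the 8 neutrophil markers that the rule did not use ran from 7751 to 14303 CPM in minP1_PDL1 mice, 5535 to 7263 in PDL1 mice, 4627 to 12271 in minP1 mice and 2718 to 15652 in Control mice. With the 4 markers of the rule, which make up most of the sum, it ran from 39542 to 66293, 20088 to 28480, 22281 to 51148 and 13161 to 50681 in these groups, in the same order. That of 10 dendritic cell markers ran, in CPM, from 256 to 7379, 3828 to 6111, 476 to 6639 and 2122 to 4706 in these groups, in the same order, and none of the 10 was at 0. That of 10 monocyte markers ran from 3227 to 5092, 4579 to 5119, 3060 to 7491 and 6983 to 12108. Their part in the list values was not tested. Without the cells that carried a gene of another lineage, 0 Control mice and 10 mice in all could be fitted. Of 4824 genes tested, 5 were called in minP1_PDL1 against PDL1, all lower in minP1_PDL1: Cd74 (log2 change -3.72), Cst3 (-3.11), H2-Ea-ps (-4.97), Irf8 (-3.60) and Crip1 (-2.85). Cd74, the invariant chain of MHC class II, and the cystatin Cst3 are abundant in dendritic cells, and these genes were named after their values were seen. None of the 10 dendritic cell markers was among the genes of another lineage, so cells with dendritic cell reads could remain, which was not tested. Before those cells were left out, 1 cell held 33.1% of the Cst3 reads of PDL1 neutrophils and 1 cell 48.8% of those of minP1_PDL1 neutrophils. For Cd74 these values were 20.4% and 44.1%.

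**Figure D5:**
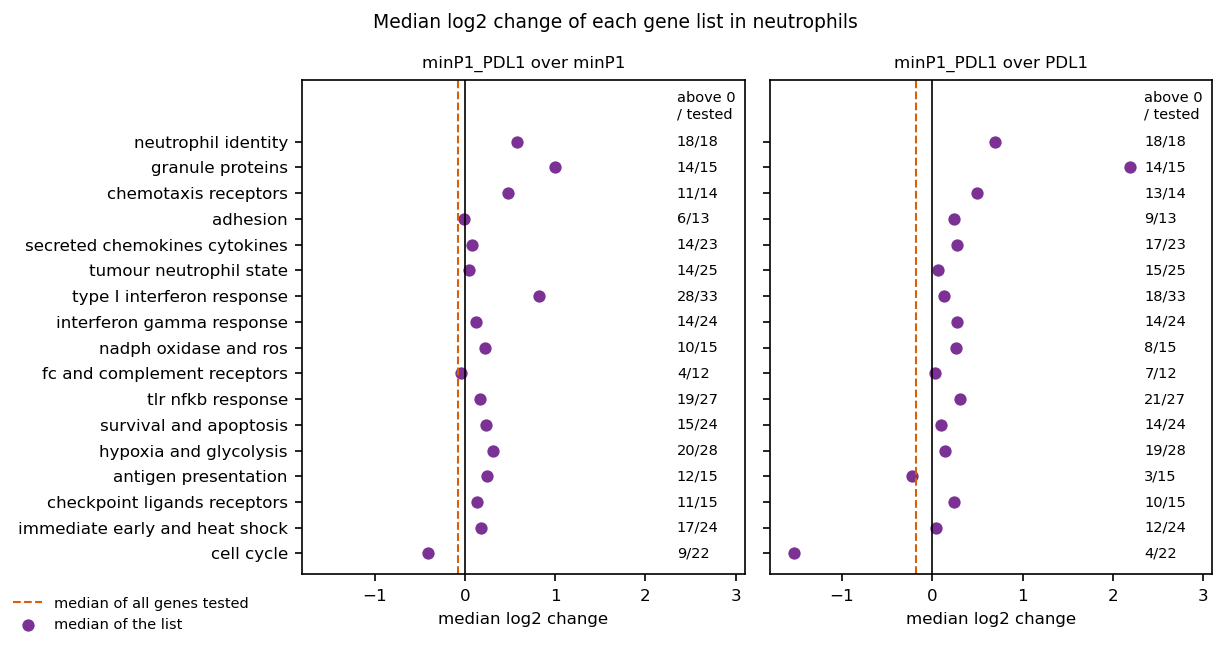
Median log2 change of the tested members of 17 gene lists in neutrophils (points) for minP1_PDL1 over minP1 and minP1_PDL1 over PDL1, with the number of members above 0 and tested at the right; the dashed line is the median of all 10586 genes. The interferon list stands at 0.82 in the first comparison and 0.13 in the second, and the granule list at 1.00 and 2.19; the identity list is drawn with its 4 genes of the rule, and none of the lists is tested here.

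Comparisons with Control rest on Control_3 and its 10 neutrophils. PDL1 against Control had 1 gene past the threshold of 10586 (0.00945% by edgeR, either direction), Lcn2, with a log2 change of -4.04 (SE 0.642, edgeR adjusted p = 0.0157). minP1 against Control also had 1 (0.00945%), Ifitm6, with a log2 change of -3.73 (SE 0.613, edgeR adjusted p = 0.0257). minP1_PDL1 against Control had 0 (0%), with 751 genes (7.09%) at an unadjusted p under 0.05, and DESeq2 called 0. In Control_3 a single cell held 95.8% of the Lcn2 reads and 89.5% of the Ifitm6 reads. The levels per mouse overlapped: Lcn2 was at 2.16 to 4.84 CP10k in PDL1 mice and at 0.482 and 2.53 CP10k in Control_1 and Control_2, and Ifitm6 was at 1.12 to 2.36 CP10k in minP1 mice and at 5.20 and 0.731 CP10k in these Control mice. With all 14 mice, 0 of 7231 genes passed in any of the 3 comparisons. At an unadjusted p under 0.05 there were 762 genes (10.5%) in minP1_PDL1 against Control, 499 (6.9%) in PDL1 and 626 (8.66%) in minP1. The changes of Lcn2 in PDL1 and Ifitm6 in minP1 were -2.57 and -2.36 (edgeR adjusted p = 0.700 and 0.569).

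The difference of the antibody effect with and without peptide gave 5 called genes of 10586 (0.0472%), of which S100a8 belongs to the rule. The other 4 were members of the granule list, with interaction log2 values of 4.99 for Lcn2 (SE 0.777, edgeR adjusted p = 0.00904), 5.995 for Mmp8 (SE 0.999, edgeR adjusted p = 0.0106), 4.52 for Ifitm6 (SE 0.811, edgeR adjusted p = 0.0231) and 6.54 for Retnlg (SE 1.23, edgeR adjusted p = 0.0368). All rest on the same Control mouse, in which 1 cell held 91.5% of the Mmp8 reads and 76.5% of the Retnlg reads. With 14 mice the values were 3.53, 4.52, 3.18 and 5.09, in that order, 0 genes passed (edgeR adjusted p from 0.636 to 0.655), and 453 (6.26%) had an unadjusted p under 0.05. The antibody average over both strata had 0 called genes (0%) in the 12 mice, 672 (6.35%) at an unadjusted p under 0.05, and 2 called by DESeq2. The 3 smallest p in it, of Clec2d, Pstpip1 and Psma6, went with 0 reads of these genes in Control_3.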

How the data were processed

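Single-cell 3′ cDNA of CD45+ tumour cells came from BD Rhapsody capture and was trimmed, aligned and handled with cutadapt 2.10, Bowtie2 2.3.4.1 and Seurat 2.3.4 on mm10, per the submitters' processing notes. The authors deposited a table of read counts, in whole numbers, with 22836 genes and 8262 barcodes, already assigned to mice. The median nonzero count is 10 and 18.0% of nonzero counts are 1, so reads were not collapsed to molecules. Barcodes named as doublets (141) or without a hashtag (6), 147 in all, were not used, and no doublet caller was run. No barcode was shared by 2 mice.

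Members and gene lists were chosen with earlier results of these data known. Shares were tested by exact permutation over mice, two-sided (SciPy 1.17.1, NumPy 2.4.6, Python 3.11.15), with Benjamini-Hochberg adjustment over 6 comparisons and, for the antibody, permutation within peptide strata. Reads summed per mouse (at least 10 neutrophils) were fitted with edgeR 4.0.16 in R 4.3.3 (TMM, filterByExpr, quasi-likelihood, all groups in 1 fit, Benjamini-Hochberg over all genes, threshold 0.05). Alternatives were DESeq2 1.42.0, limma 3.58.1, RLE factors, no low-count filter, other cell limits, a replicate block and each mouse left out. For limma, CP10k was averaged over the cells of a mouse, 0.1 was added, and log2 was then taken. Genes named are the called genes or, with fewer than 3, the 3 of smallest p, up to 4 members of a list by p of the antibody average, and a panel of 30, of which not all are reported here. Where the labels call samples separate, these are separate mice.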

Additional observations from a re-analysis of the deposited data

Results flagged for a closer look

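In groups of 4 mice, 5 of 62 gene and group pairs had 1 mouse far from the others in mean CP10k per neutrophil, where chance sets apart about 1 in 20. In minP1_PDL1_4, interleukin 1 beta (Il1b) reached 326.4 CP10k, against 197.1 to 209.7 CP10k in the other minP1_PDL1 mice, and Cd274 reached 28.16 CP10k, against 8.80 to 11.47 CP10k. In minP1_PDL1_1, arginase 1 (Arg1) reached 6.438 CP10k, against 0.257 to 1.033 CP10k in the other mice of that group. In minP1_2, Lcn2 reached 10.76 CP10k, against 5.824 to 6.644 CP10k in the other minP1 mice, and S100a8, a gene of the cell rule, was at 100.6 CP10k, against 130.1 to 135.8 CP10k.

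The interaction term of edgeR, the antibody effect with peptide minus that without it, passed for 4 members of the granule list in the 12 mice, on the log2 scale. Values were 4.992 for Lcn2, 5.995 for Mmp8, 4.525 for Ifitm6 and 6.545 for Retnlg (edgeR adjusted p = 0.00904, 0.0106, 0.0231 and 0.0368). The Control side of this difference is 1 mouse, in which 1 cell held between 76.5% and 95.8% of the reads of each gene. With all 3 Control mice the values were 3.53, 4.52, 3.18 and 5.09 in the same order, and none passed (edgeR adjusted p from 0.636 to 0.655).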

How the results depend on the processing

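The antibody difference in neutrophil share, 3.31 percentage points at an adjusted p of 0.06 by the exact permutation test, fell under 0.05 with an S100a8 and S100a9 limit of 10 CP10k (3.71 points) or 100 CP10k (2.51), with a Ptprc read required (3.07), without cells of another lineage (2.92) and with a Csf3r read required (3.17). Without a mitochondrial limit it was 3.08 points at an adjusted p of 0.06. Leaving out 1 mouse gave 2.898 to 3.64 points. The other share comparisons kept their direction in all alternatives run. None reached an adjusted p under 0.05. For PDL1 against Control this says nothing of stability, since the exact p of 3 against 3 mice cannot go under 0.1.

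Counts of called genes moved with the tool, in the order PDL1, minP1 and minP1_PDL1 against Control, minP1_PDL1 against PDL1 and minP1, antibody average, and interaction, from 1, 1, 0, 0, 0, 0 and 5 by edgeR. DESeq2 called 5, 4, 0, 6, 9, 2 and 13. RLE factors gave 5, 1, 0, 1, 0, 0 and 5. No low-count filter gave 20, 28, 14, 16, 7, 4 and 21. limma on cells of equal weight gave 53, 72, 80, 0, 0, 27 and 24. A minimum of 5 cells gave 0 in all 7. Without cells of another lineage, minP1_PDL1 against PDL1 had 5 and against minP1 0. With each mouse left out the counts ran from 0 to 6, 0 to 6, 0 to 2, 0 to 5, 0 to 1, 0 to 2 and 3 to 7. The difference between neutrophils and monocyte-gate cells had 1 called gene with a Csf1r read in the gate and 0 to 1 with a mouse left out; the cause of these moves was not tested. Comparisons with Control could not be fitted without Control_3, with a minimum of 20 cells or without cells of another lineage, since no Control mouse was left.

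The replicate numbers did not pair the mice: deviations of same-numbered mice correlated from -0.0858 to 0.0238 over 10 pairs. A replicate block gave 13, 7, 3, 11, 5, 1 and 15 called genes.

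Of 1071 values of named genes under an alternative, 989 kept their direction and side of the threshold, 57 newly passed, 22 no longer did and 3 turned round. The last were Cd274 in minP1_PDL1 against minP1 without minP1_PDL1 replicate 4 (-0.0993; -0.0993 to 0.7295 over all mice left out), and Lcn2 in the same comparison with cells of equal weight (-0.2151) and without cells of another lineage (-0.4989). Most named genes had not passed in the main fit, and not passing again counted as the same side. Some alternatives left out a mouse of neither group compared. The number that kept their side is therefore no measure of stability. Depth limits all of this: 8 to 38 neutrophils per mouse, of which 1 cell held up to 43.8% of the reads.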
